A study of Mus musculus with 6 samples.

Results

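Transcripts of 10 inflammatory CC chemokine ligands, Ccl2, Ccl3, Ccl4, Ccl5, Ccl6, Ccl7, Ccl8, Ccl9, Ccl12 and Ccl24, were examined by gene symbol among the 26110 genes of a bulk RNA-seq table with 6 libraries. All 10 were listed and all 10 passed the filter on low values. The cells were MHCIIhi cells sorted from the small bowel muscularis externa (ME), the muscle layer of the gut wall, of naive, untreated CX3CR1+/GFP mice on a C57BL/6 background. In these mice GFP stands in place of the fractalkine receptor CX3CR1 on 1 allele, so that both groups carried the reporter and a single functional Cx3cr1 copy, and GFP divided the cells into 3 CX3CR1- and 3 CX3CR1+ libraries. The study pooled the ME of several mice per group, and whether each library had a pool of its own is not given in the sources used here, so p-values measure the spread between libraries only. The age of the mice is not given in these sources either.

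CC chemokines are small secreted proteins that direct leukocyte migration through G protein-coupled receptors. Ccl2, Ccl7, Ccl12 and Ccl8 belong to the monocyte chemoattractant proteins, most of which act on CCR2 and draw monocytes out of the blood. Ccl3, Ccl4, Ccl5, Ccl6 and Ccl9 form the MIP-1 and RANTES group, which draws monocytes, T cells and other leukocytes, and Ccl24 is an eotaxin that acts on CCR3 of eosinophils. In the gut muscle, resident macrophages are a known source of such ligands once the tissue is disturbed.

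The sort and the labelled cell type were checked first. Cx3cr1 lay between 18.9 and 28.5 normalized units in CX3CR1- and between 347 and 380.4 in CX3CR1+ libraries. The labels call the cells of both groups dendritic cells, whereas the study calls them macrophages. For this name the study pointed to IBA-1 staining of the MHCII+ cells. By flow cytometry it found CD11b on most CX3CR1- cells, and CD11c and CD103 on very few. It also reported higher CD103 and Flt3 transcripts in CX3CR1- cells. Summed over 12 macrophage markers, the CX3CR1- libraries reached 12171 ± 939 (SD, n = 3) and the CX3CR1+ libraries 55570.0 ± 2858 (SD, n = 3), with 11 markers lower in CX3CR1- and Lyve1 higher. Summed over 9 markers of conventional dendritic cells, it was 4576 ± 267 (SD, n = 3) and 569 ± 33.2 (SD, n = 3), so that markers of the labelled type were low in CX3CR1+, with 8 of 9 called higher in CX3CR1-. Transcripts of other cells were also more abundant in CX3CR1-, namely those of epithelium (summed level 15185 to 24946 against 28.4 to 52.3), fibroblasts (5258 to 16011 against 209 to 364) and B and plasma cells (3310 to 26426 against 60.1 to 89.3). Mitochondrial genes made up 51.7% ± 3.76 of CX3CR1- and 19.6% ± 1.55 of CX3CR1+ totals (SD, n = 3 each), and the approximate depth was 5346381 to 17616761 reads. Among markers of monocytes, eosinophils, mast cells, endothelium and enteric glia and neurons, 3 of 5, 2 of 2, 1 of 1, 3 of 5 and 3 of 6 tested genes were higher in CX3CR1-, all 6 of smooth muscle were not called, and of 2 neutrophil markers Csf3r was lower. Of the marker genes searched, 4 of 6 for eosinophils, 2 of 7 for mast cells and 2 of 7 for neutrophils were listed. The only mast cell gene tested was Kit. The part of these differences in cell markers in the results on the ligands was not tested. In bulk samples, fewer cells that make a transcript and less transcript per cell cannot be told apart.

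The ligands divided by population. Normalized values, made comparable between libraries by the authors with DESeq2, were compared with limma on log2(value + 1), and calls required a log2 fold change of 1 or more in either direction together with an adjusted p up to 0.05. Ccl2, Ccl3, Ccl4, Ccl7 and Ccl12, that is 5 of the 10, were lower in CX3CR1- cells, where 8.15% of all 17812 tested genes were called lower. Ccl5, Ccl6, Ccl9 and Ccl24, that is 4 of the 10, were higher, where 12.2% of all tested genes were called higher. Ccl8 was not called. The libraries of both groups did not overlap for the same 9 genes, against 19.8% of all tested genes that lay lower without overlap and 20.3% that lay higher. Over the 10 ligands the median log2 fold change was -1.62, against -0.0035 over all tested genes.

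**Figure D1:**
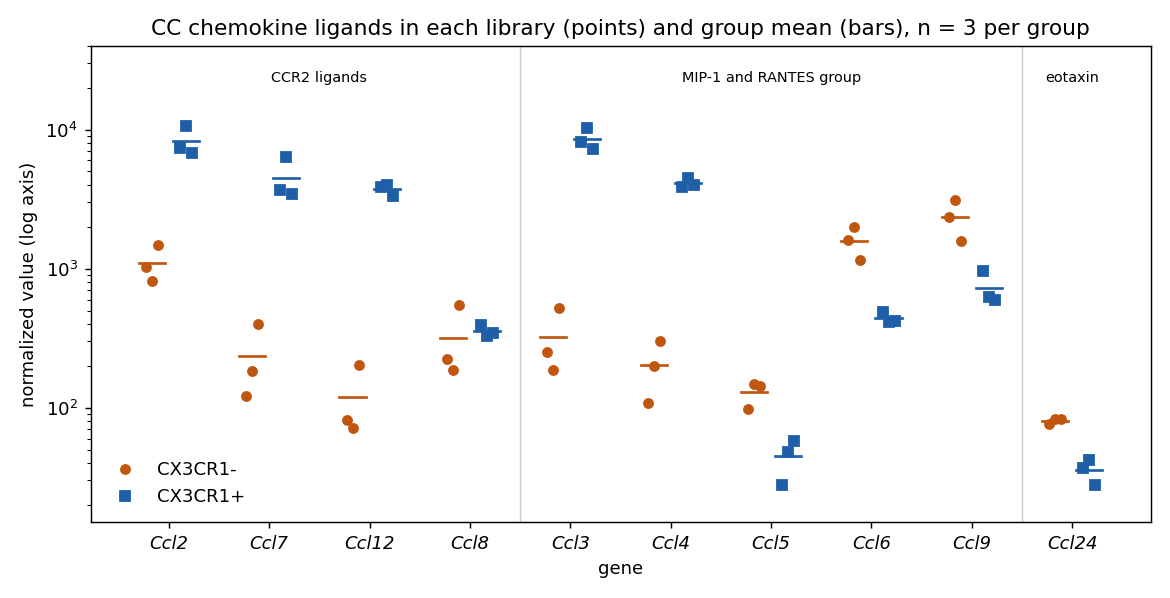
Normalized value of each ligand (log axis) in every library, with CX3CR1- as circles, CX3CR1+ as squares and the group means (n = 3) as bars. Ccl2, Ccl7, Ccl12, Ccl3 and Ccl4 lie lower in all CX3CR1- libraries, Ccl5, Ccl6, Ccl9 and Ccl24 lie higher, and Ccl8 overlaps.

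Among the CCR2 ligands, Ccl2 (ENSMUSG00000035385), the main attractant of classical monocytes, was measured at 1021, 810.3 and 1483 in CX3CR1- replicates 1, 2 and 3 and at 7329, 10575 and 6822 in CX3CR1+ replicates 1, 2 and 3. Every CX3CR1+ library was thus above every CX3CR1- library, and the log2 fold change was -2.92 ± 0.24 (SE, n = 3 per group, limma adjusted p = 2.06e-05). With its highest levels in CX3CR1+, Ccl2 was nonetheless still abundant in CX3CR1-, where it had 453 to 1487 reads.

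Ccl7 (ENSMUSG00000035373), which acts on CCR2 and on further CC receptors, was at 121, 184 and 398 in CX3CR1- and at 3700.1, 6394 and 3462 in CX3CR1+ replicates 1, 2 and 3. The log2 fold change was -4.38 ± 0.39 (SE, n = 3 per group, limma adjusted p = 3.43e-05). Ccl12 (ENSMUSG00000035352), a CCR2 ligand of mice, was at 81.5, 71.1 and 204 in CX3CR1- and at 3877, 4027 and 3354 in CX3CR1+. At -5.13 ± 0.34 (SE, n = 3 per group, limma adjusted p = 6.75e-06), the Ccl12 log2 fold change ranked 2 from the lowest of all 17812 tested genes. The same order placed Ccl3 at 5, Ccl4 at 13, Ccl7 at 19 and Ccl2 at 166.

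Ccl8 (ENSMUSG00000009185), a monocyte chemoattractant protein that in mice also acts on CCR8, was not called. It was at 223, 186 and 546 in CX3CR1- and at 396, 329.7 and 346 in CX3CR1+ replicates 1, 2 and 3. CX3CR1- replicate 3 lay above all CX3CR1+ libraries and the other two below them. The log2 fold change was -0.33 (95% confidence interval -1.12 to 0.47, limma adjusted p = 0.559), and without CX3CR1- replicate 3 it was -0.80 with an adjusted p of 0.0257, still under the fold required for a call. The interval reaches past the fold threshold on the side of the other CCR2 ligands and stays within it on the other side.

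Ccl8 and Ccl12 are neighbours in 1 gene cluster, and within CX3CR1- their levels moved in step. Within CX3CR1-, the highest library exceeded the lowest by 2.94 times for Ccl8 and by 2.87 times for Ccl12, and the ratio of Ccl8 to Ccl12 was 2.74, 2.62 and 2.68 in replicates 1, 2 and 3. Within CX3CR1+ the same ratio was 0.102, 0.0819 and 0.103. This pair was picked after its values were seen. A like rise in CX3CR1- replicate 3 was not particular to these neighbours. Against the mean of replicates 1 and 2 it was 2.67 times for Ccl8 and Ccl12, 2.61 times for Ccl7 and 2.37 times for Ccl3, which lies in another cluster. The sequences before Ccl12 and Ccl8 are shown because Ccl12 was called and Ccl8 was not. They are the 250 bases upstream of the start site from RefSeq on GRCm38.p6, both on the plus strand, at chr11:82101595-82101844 for Ccl12 and chr11:82114935-82115184 for Ccl8, with capitals for the 3 runs of at least 8 bases that are identical at aligned positions.
Ccl12: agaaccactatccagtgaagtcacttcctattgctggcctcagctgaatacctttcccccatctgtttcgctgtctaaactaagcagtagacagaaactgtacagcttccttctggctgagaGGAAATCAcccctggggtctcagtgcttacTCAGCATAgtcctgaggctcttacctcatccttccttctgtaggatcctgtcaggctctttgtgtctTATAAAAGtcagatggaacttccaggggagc
Ccl8: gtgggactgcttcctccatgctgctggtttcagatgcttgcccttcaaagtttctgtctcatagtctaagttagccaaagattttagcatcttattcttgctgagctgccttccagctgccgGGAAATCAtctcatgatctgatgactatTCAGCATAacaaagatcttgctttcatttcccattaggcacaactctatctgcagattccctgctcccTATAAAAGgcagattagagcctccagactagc
In the alignment 60.0% of the 250 bases were identical, against 50 to 57.2% in the other 9 pairs among the 5 ligands with a RefSeq promoter (Ccl3, Ccl6, Ccl8, Ccl9 and Ccl12). The last run, close to the start site, holds the TATA box letters TATAAA, which on either strand occurred in 3 of these 5 promoters (Ccl8, Ccl12 and Ccl9) and in 12.3% of 32536 promoters of the 250 bases. The AP-1 letters TGANTCA and the kappa B consensus were each found in 1 of the 5 (Ccl9 for both), against 6.73 and 7.28% of all promoters, and the PU.1 letters GAGGAAG in 1 (Ccl8) against 10.7%. Ccl6 and Ccl9 shared the longest run at any offset, 13 bases. These matches are descriptions of the letters in these windows.

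In the MIP-1 and RANTES group, Ccl3 and Ccl4 were on the side of CX3CR1+. Ccl3 (ENSMUSG00000000982), known as MIP-1 alpha, was at 254, 188 and 523 in CX3CR1- and at 8129, 10321 and 7224 in CX3CR1+ replicates 1, 2 and 3. Its reads came out as whole numbers in all libraries, with 105 to 524 reads in CX3CR1- and 5100 to 17575 in CX3CR1+, so depth did not limit the comparison. The log2 fold change was -4.85 ± 0.32 (SE, n = 3 per group, limma adjusted p = 6.75e-06).

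Ccl4 (ENSMUSG00000018930), known as MIP-1 beta, was at 107, 200.3 and 303 in CX3CR1- and at 3836, 4494 and 4013 in CX3CR1+. The log2 fold change was -4.45 ± 0.31 (SE, n = 3 per group, limma adjusted p = 9.27e-06). The CX3CR1+ libraries lay close together, with an SD of 0.118 on the log2 scale against 0.749 in CX3CR1-. A larger log2 SD in CX3CR1- was found for 8 of the 10 ligands and for 70.0% of all tested genes.

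Ccl5, Ccl6 and Ccl9 were on the other side. Ccl5 (ENSMUSG00000035042), also known as RANTES and a product of T and NK cells as well as of myeloid cells, was at 97.8, 148 and 144 in CX3CR1- and at 27.9, 48.0 and 58.0 in CX3CR1+ replicates 1, 2 and 3. The groups did not overlap, with a log2 fold change of 1.56 ± 0.35 (SE, n = 3 per group, limma adjusted p = 0.0085), but the gene had only 41 to 144 reads per library. Markers of T and NK cells summed to 188 to 469 in CX3CR1- and 74.8 to 132 in CX3CR1+ libraries, with 3 of 5 tested markers higher. Of the chains of CD3, which defines T cells, Cd3d had a log2 fold change of 0.07 (limma adjusted p = 0.918), while Cd3e, at 1.99 to 33.7 in CX3CR1- and 0 to 2.55 in CX3CR1+, and Cd3g lay under the filter on low values and were not tested. The part of these cells in the Ccl5 difference was not tested.

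Ccl6 (ENSMUSG00000018927), a rodent CCR1 ligand of myeloid cells, was at 1612, 2000.0 and 1151 in CX3CR1- and at 487, 414 and 423 in CX3CR1+. The log2 fold change was 1.81 ± 0.22 (SE, n = 3 per group, limma adjusted p = 2.14e-04). Ccl9 (ENSMUSG00000019122), the other rodent CCR1 ligand and known as MIP-1 gamma, was at 2347, 3125 and 1578 in CX3CR1- and at 962, 628 and 591 in CX3CR1+, with a log2 fold change of 1.67 ± 0.27 (SE, n = 3 per group, limma adjusted p = 0.00135). Both genes were highest in CX3CR1- replicate 2 and lowest there in replicate 3. Of the 31-base stretches of Ccl9, 3.98% also occur in other genes, against 1.02% for Ccl6 and 0% for Ccl2, Ccl3, Ccl4, Ccl7, Ccl8 and Ccl12.

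Ccl24 (ENSMUSG00000004814), the eotaxin, was at 76.9, 82.5 and 83.2 in CX3CR1- and at 36.8, 41.9 and 27.9 in CX3CR1+ replicates 1, 2 and 3. The log2 fold change was 1.18 ± 0.31 (SE, n = 3 per group, limma adjusted p = 0.0184) on 20 to 83 reads per library. This call was lost without CX3CR1+ replicate 1 (adjusted p = 0.0529), without CX3CR1+ replicate 3 (adjusted p = 0.075) and after quantile normalization (log2 fold change 0.91, adjusted p = 0.0599). For each of the 9 called ligands, the exact two-sided permutation test of its own 6 values gave 0.1, the smallest p that 3 libraries against 3 allow.

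Apart from Ccl24 on chromosome 5 (GRCm38, chr5:135569937-135573049, minus strand), the ligands lie on chromosome 11 in a pair of clusters 1409 kb apart, and both clusters held ligands that differed in call. In the first, of 81.2 kb, the genes in order were Ccl2 (chr11:82035571-82037453), Ccl7 (chr11:82045712-82047525), Ccl11, Ccl12 (chr11:82101845-82103400) and Ccl8 (chr11:82115185-82116799), all on the plus strand. Ccl11, an eotaxin between the lower genes Ccl7 and Ccl12, was at 20.9, 41.1 and 32.9 in CX3CR1- and at 18.0, 13.9 and 9.92 in CX3CR1+, and its log2 fold change of 1.11 was not called (limma adjusted p = 0.117). The second cluster, of 138.9 kb, held a block of Ccl5 (chr11:83525778-83530518), Ccl9 (chr11:83572919-83578636) and Ccl6 (chr11:83587882-83593087), all higher in CX3CR1-, and then Ccl3 (chr11:83647844-83649355) and Ccl4 (chr11:83662584-83664683), both lower. In this cluster Ccl4 alone is on the plus strand. None of the 10 ligands shares exon bases with another annotated gene.

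**Figure D2:**
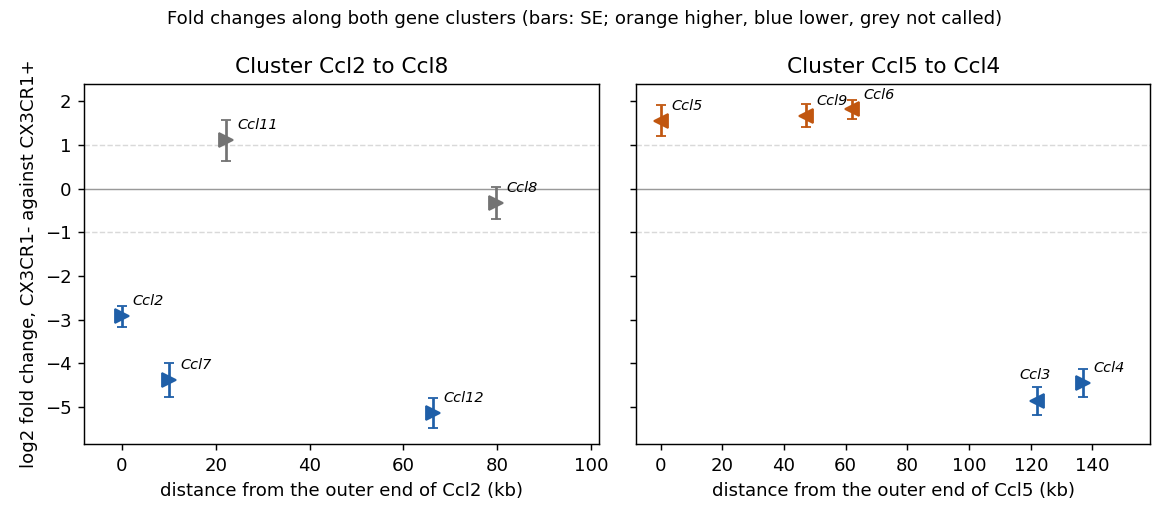
Log2 fold change of CX3CR1- against CX3CR1+ (points, with SE bars) against distance in kb from the outer end of the first gene of each chromosome 11 cluster, with arrowheads for the strand and dashed lines at a log2 fold change of 1 and -1. Ccl5, Ccl9 and Ccl6 lie side by side above 0 and Ccl3 and Ccl4 side by side below it, while Ccl11 and Ccl8 stand apart from the lower genes of the first cluster.

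Ccl12, Ccl3 and Ccl4, which were all lower in CX3CR1-, were the ligands whose 3′ untranslated region held TATTTAT, the core letters of AU-rich elements that mark short-lived transcripts. It occurred in these 3 of the 10, against 21.9% of 14699 genes with a 3′ untranslated region within the range of the ligands (165 to 2465 bases). The shorter ATTTA was in 7 of the 10 against 63.5%. Ccl9 alone set the upper end of this range, and the next longest region was that of Ccl6, with 943 bases. Those of Ccl12, Ccl3 and Ccl4 had 167, 409 and 302 bases, so the shares of all genes are not matched to them in length. The sites, searched on the strand of the transcript, are shown for these 3 ligands as 28 bases with TATTTAT in capitals, at chr11:82103278-82103305 (plus strand) for Ccl12, chr11:83648003-83648030 (minus strand) for Ccl3 and chr11:83664543-83664570 (plus strand) for Ccl4 on GRCm38.
Ccl12: ggcagtgtgaTATTTATtatgatatcta
Ccl3: tatttgtgacTATTTATtctgaaagact
Ccl4: ttatttctatTATTTATgttttagttat
Ccl7, whose log2 fold change of -4.38 was within the SE of that of Ccl4, had 2 copies of ATTTA and none of TATTTAT, so the letters did not divide the lower ligands from the rest. RNA stability was not measured.

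Per kilobase of transcript, which allows genes to be set beside each other, the ligands had another order in each population. Neighbours in an order were taken as separated where every library of the first lay above every library of the next. In CX3CR1+ libraries, with the union of exons as length, Ccl3 came first with a level of 11172 ± 2079 per kb (SD, n = 3). At this length Ccl3 was separated from Ccl2. Ccl2 (7242 ± 1789), Ccl12 (6988 ± 657), Ccl4 (6234 ± 516) and Ccl7 (5641 ± 2033 per kb, SD, n = 3 each) overlapped with their neighbours in the order and were not separated. Ccl8 at 699 ± 67.6 per kb (SD, n = 3) lay below all of these in every library, Ccl6 (246 ± 21.97) and Ccl9 (239 ± 67.0 per kb, SD, n = 3) followed without separation from each other, and Ccl5 (46.5 ± 15.9) and Ccl24 (27.4 ± 5.47 per kb, SD, n = 3) came last, again not separated from each other.

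In CX3CR1- libraries the order of levels began with Ccl2 at 971 ± 302 per kb (SD, n = 3), then Ccl6 (884 ± 237), Ccl9 (772 ± 254) and Ccl8 (623 ± 388 per kb, SD, n = 3 each). Ccl3 followed only after these, at 419 ± 232 per kb (SD, n = 3), before Ccl4 (309 ± 148), Ccl7 (293 ± 181), Ccl12 (221 ± 138), Ccl5 (135 ± 29.1) and Ccl24 (62.5 ± 2.70 per kb, SD, n = 3 each). Of the 9 pairs of neighbours in this order, only Ccl5 and Ccl24 were separated in every library, compared with 4 of 9 in CX3CR1+. With the longest transcript as length, Ccl6 (1102 per kb) came before Ccl2 (1008 per kb), and with coding transcripts Ccl5 (244 per kb) came before Ccl12. In CX3CR1+ libraries Ccl3 stayed first at 11172 per kb with either length. There it was no longer separated from Ccl2, at 7520 per kb with the longest and 10138 per kb with coding transcripts.

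Summed over all 10 ligands, the level per kb came to 4690.0 ± 950 in CX3CR1- and 38535 ± 6809 in CX3CR1+ libraries (SD, n = 3 each), without overlap. Its makeup differed as well. Ccl2, Ccl3, Ccl4, Ccl7 and Ccl12 held 37.3 to 57.6% of the sum in CX3CR1- and 96.1 to 97.5% in CX3CR1+, and Ccl5, Ccl6, Ccl9 and Ccl24 held 23.8 to 54.3% and 1.12 to 1.78%. The shares of Ccl2 overlapped, at 20.5% ± 3.60 in CX3CR1- and 18.7% ± 1.26 in CX3CR1+ (SD, n = 3 each). The share of Ccl3 was 8.61% ± 3.11 (SD, n = 3) and 29.0% ± 0.539 (SD, n = 3), and that of Ccl6 19.8% ± 7.67 (SD, n = 3) and 0.653% ± 0.135 (SD, n = 3).

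**Figure D3:**
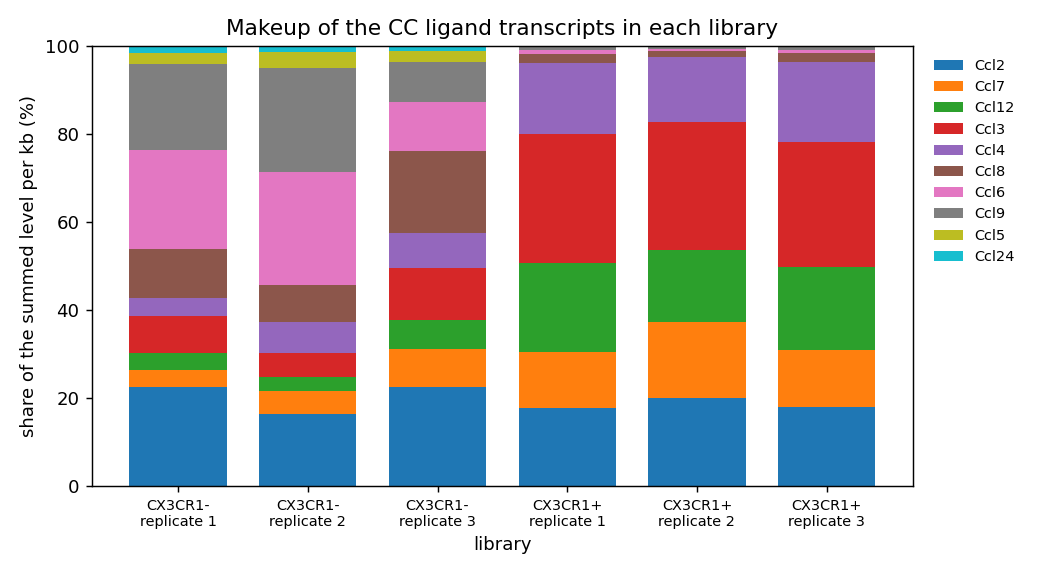
Share of each ligand in the summed level per kb of all 10 (%, vertical axis) in each of the 6 libraries (horizontal axis). In CX3CR1+ libraries Ccl2, Ccl7, Ccl12, Ccl3 and Ccl4 fill 96.1 to 97.5% of the bar, whereas Ccl6, Ccl9 and Ccl8 take large parts of the CX3CR1- bars.

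Ratios between ligands within a library do not depend on the scaling between libraries. The ratio of Ccl3 to Ccl2 was 0.248, 0.232 and 0.352 in CX3CR1- and 1.11, 0.976 and 1.06 in CX3CR1+ replicates 1, 2 and 3. The ratio of Ccl12 to Ccl2 was 0.0799, 0.0878 and 0.138 against 0.529, 0.381 and 0.492, and that of Ccl7 to Ccl2 was 0.119, 0.227 and 0.268 against 0.505, 0.605 and 0.507. These ratios did not overlap between the populations, and neither did Ccl8 to Ccl12. The ratio of Ccl9 to Ccl6 overlapped, at 1.46 ± 0.0959 in CX3CR1- and 1.63 ± 0.306 in CX3CR1+ (SD, n = 3 each), and so did that of Ccl3 to Ccl4, at 1.67 ± 0.712 (SD, n = 3) and 2.07 ± 0.252 (SD, n = 3). For the 4 of 6 ratios without overlap the exact two-sided permutation test gave the smallest possible p of 0.1, and 0.15 after adjustment over the 6, so that none passed. The 2 ratios that overlapped had p = 0.5 (Ccl3 to Ccl4, exact permutation) and p = 0.6 (Ccl9 to Ccl6, exact permutation).

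**Figure D4:**
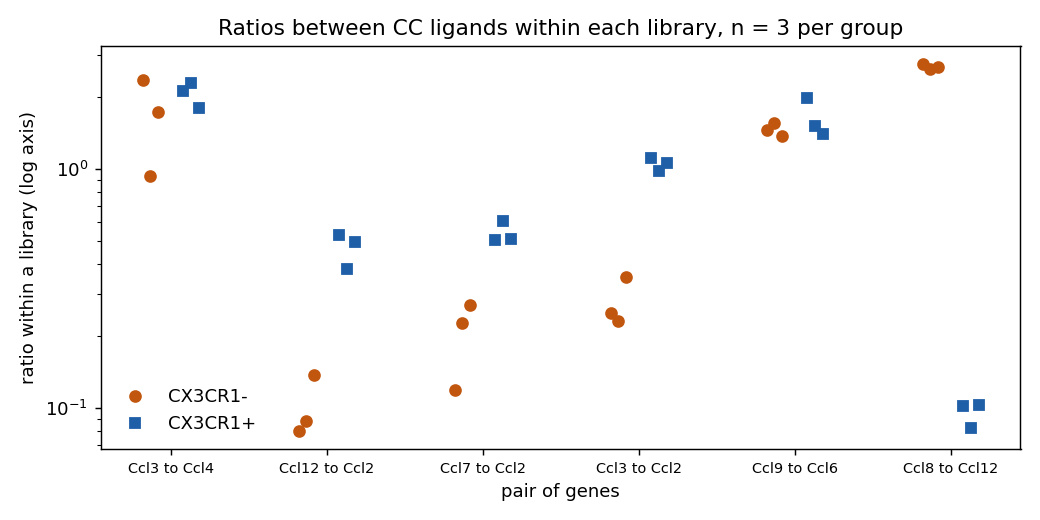
Ratio of the normalized values of 2 ligands within a library (log axis) for 6 pairs of genes (horizontal axis), with 3 CX3CR1- libraries as circles and 3 CX3CR1+ libraries as squares. Ccl3 to Ccl4 and Ccl9 to Ccl6 overlap between the populations, whereas Ccl8 to Ccl12 lies between 2.62 and 2.74 in CX3CR1- and between 0.0819 and 0.103 in CX3CR1+.

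The CX3CR1- libraries also differed among themselves. Replicate 3 was the highest of them for 7 of the 10 ligands, namely Ccl2, Ccl3, Ccl4, Ccl7, Ccl8, Ccl12 and Ccl24, and the lowest for Ccl6 and Ccl9. Against the mean of replicates 1 and 2, its level was 2.67 times as high for Ccl8 and Ccl12, 2.61 times for Ccl7 and 2.37 times for Ccl3, but 1.04 times for Ccl24, 0.637 times for Ccl6 and 0.577 times for Ccl9. Ccl5, Ccl6 and Ccl9 were highest in replicate 2. The share of all tested genes that were highest in replicate 3 is not given here. Fibroblast markers summed to 9409, 5258 and 16011 in CX3CR1- replicates 1, 2 and 3 and thus were also highest in replicate 3. Macrophage markers summed to 11104, 12868 and 12542, and monocyte markers to 3533, 4662 and 2480.1. Other marker sums that were highest in replicate 3 were those of T and NK cells (469) and mast cells (535). The largest parts of the T and NK sum there were Gzma (195), Cd3d (113) and Gzmb (62.8). The mast cell sum was almost all Kit, at 382, 133 and 532 in replicates 1, 2 and 3. Besides Kit only Ms4a2 of the mast cell genes was listed, and it lay under the filter on low values. Marker sums lowest in replicate 3, like Ccl6 and Ccl9, were those of monocytes, eosinophils (90.3) and epithelium (15185). The sum of B and plasma cells (9093, 26426 and 3310) was lowest there too. The part of these cells in the spread of the ligands was not tested. Without CX3CR1- replicate 3 the counts of ligands remained 5 lower and 4 higher.

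The macrophage markers, 11 of 12 of which were lower in CX3CR1-, give a measure of the population difference beside the ligands. Their summed level was 4.57 times as high in CX3CR1+ as in CX3CR1-, while group means were 7.46 times as high for Ccl2, 19.3 times for Ccl7, 20.2 times for Ccl4, 26.6 times for Ccl3 and 31.6 times for Ccl12. Of the 12 markers, the largest fold was that of Adgre1, which encodes F4/80, with a log2 fold change of -3.14 ± 0.15 (SE, n = 3 per group), so that Ccl2 at -2.92 lay within the range of these markers and Ccl3, Ccl4, Ccl7 and Ccl12, at -4.38 or lower, lay outside it. This range is that of the 12 listed markers only. Msr1, Hpgds and Lilra5, genes of myeloid cells named below because their pattern was nearest to such ligands, had log2 fold changes of -4.06, -4.32 and -4.76. The difference between the ligands and the list of markers was not tested. Of 16 early response genes known to be induced when tissue is dissociated, 5 were lower and none was higher by limma in CX3CR1- (9 and 2 at an unadjusted p under 0.05), with a median log2 fold change of -0.44. Their summed level was 1.85 times as high in CX3CR1+, with Ier3, a survival gene, at -2.69, Nfkbiz, an NF-kB cofactor, at -1.56 and Zfp36 at -1.36. Their part in the ligand differences was not tested.

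**Figure D5:**
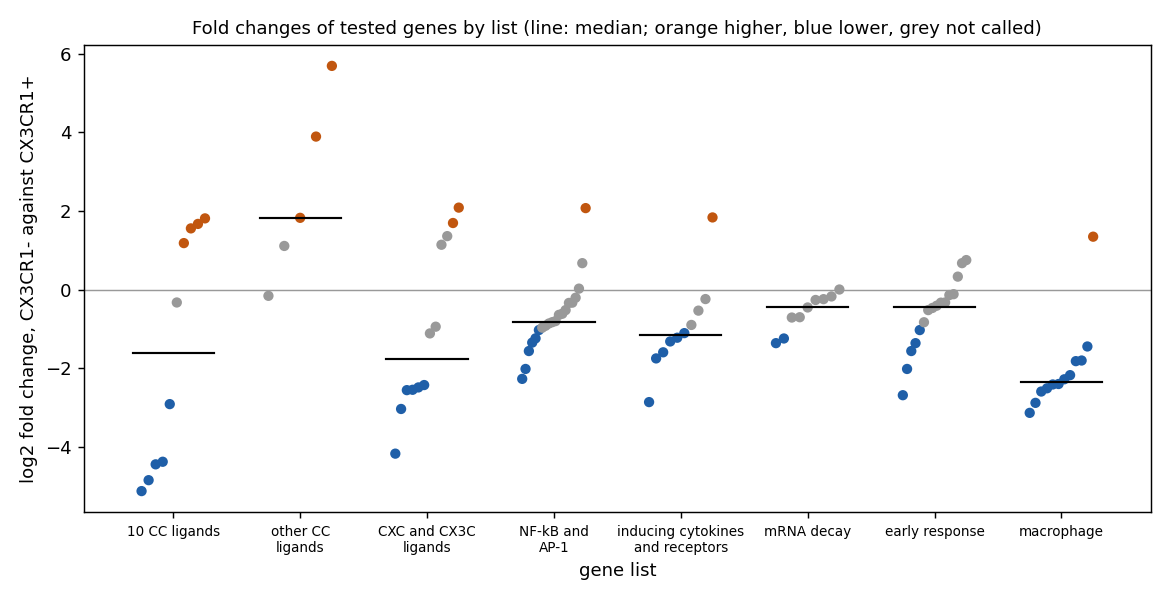
Log2 fold change of CX3CR1- against CX3CR1+ for each tested gene (points) of the 10 ligands and of 7 other lists, with the median of each list as a line. Ccl12, Ccl3, Ccl4 and Ccl7 lie below all 12 listed macrophage markers and below all genes of the lists of regulators.

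Of the 14 other CC ligands searched, 7 were listed and 5 tested, and 3 of these were higher in CX3CR1-, while by limma none was lower, also at an unadjusted p under 0.05. Ccl17 and Ccl22, ligands of CCR4 on T cells, had log2 fold changes of 5.69 and 3.89. Ccl17 was at 511, 439.9 and 402 in CX3CR1- and at 9.25, 5.74 and 8.50 in CX3CR1+. Ccl25, a CCR9 ligand of the small bowel, was at 161 ± 42.2 (SD, n = 3) and 44.0 ± 7.95 (SD, n = 3), with a log2 fold change of 1.83. Of the 16 CXC and CX3C ligands, 12 were tested, 6 were lower and 2 were higher, with a median log2 fold change of -1.77. Cxcl2, a neutrophil attractant, had a log2 fold change of -3.04, Cxcl16, the ligand of CXCR6, one of -2.56, and Pf4, a platelet chemokine also made by macrophages, one of -2.55. Cxcl12, the ligand of CXCR4, was higher by 2.09 and Cxcl9, which is induced by interferon gamma, by 1.69.

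Transcripts of receptors of the ligands were measured in the same libraries. Ccr2, the receptor of Ccl2, Ccl7 and Ccl12, was at 1933, 2619 and 1071 in CX3CR1- and at 704, 731 and 817 in CX3CR1+ replicates 1, 2 and 3, with a log2 fold change of 1.23 (limma adjusted p = 0.01), whereas Ccl2, Ccl7 and Ccl12 were lower. The call of Ccr2 was lost with no intensity trend (adjusted p = 0.0598) and without CX3CR1- replicate 2, where its log2 fold change was 0.94. Ccr1, the receptor of Ccl3, Ccl6 and Ccl9, was at 104, 134 and 97.7 against 251, 254 and 173. Its adjusted p was 0.0179 by limma, but its log2 fold change of -0.997 missed the fold threshold, which it passed in 4 of the alternatives, among them without CX3CR1- replicate 2 (-1.13) and without CX3CR1+ replicate 3 (-1.18). Ccr3, the eotaxin receptor, lay at 1.64 to 6.98 in all 6 libraries, under the filter on low values. Of 5 atypical and scavenging receptors, 3 were tested, 1 was higher and 1 lower. Ccrl2, an atypical receptor that binds chemerin, had a log2 fold change of -2.50 and Ackr4, which scavenges Ccl25 and other ligands, one of 2.86.

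Transcripts of regulators that are known to act on these ligands were read from the same fit. Among 20 NF-kB and AP-1 factors and feedback genes, 6 were lower and 1 was higher, with a median log2 fold change of -0.82. Nfkbiz, Atf3, a stress-induced repressor, and Cebpb, a myeloid activator, had log2 fold changes of -1.56, -2.02 and -2.27, and Fosl1, an AP-1 subunit, one of 2.07. The call of Fosl1 was lost without CX3CR1- replicate 3 (adjusted p = 0.0689), without CX3CR1+ replicate 1 (0.0644) or 3 (0.0652) and after quantile normalization (0.0539). Among 12 inducing cytokines and receptors, 10 were tested, 6 were lower and 1 was higher, with a median of -1.17. Tnf, which induces many CC ligands, was at 414, 443 and 433 in CX3CR1- and at 3138, 3716 and 2652 in CX3CR1+, with a log2 fold change of -2.86, and the interferon receptor chains Ifngr2 and Ifnar2 had values of -1.60 and -1.32. Il1r1, the interleukin-1 receptor, was higher by 1.84. Among 9 factors of mRNA decay, 2 were lower and none was higher by limma (5 and 0 at an unadjusted p under 0.05). These were Zfp36, which encodes tristetraprolin and binds AU-rich elements, at 22606 ± 514 in CX3CR1- and 58253 ± 3544 in CX3CR1+ (SD, n = 3 each), and its relative Zfp36l1 with a log2 fold change of -1.25, which after quantile normalization fell short of the fold threshold (-0.72).

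Over the 6 libraries, the ligand with the most similar pattern to Ccl3 was Ccl12, at a Euclidean distance of 0.458 between the centred log2 values, and Ccl6 and Ccl9 were each other's nearest at 0.429. Ccl4 and Ccl7 were also each other's nearest (0.652), whereas the nearest ligand to Ccl2 was Ccl7 at 2.01 and to Ccl8 was Ccl24 at 2.22, which are distant. Among 10198 other genes with a mean of at least 50, the nearest to Ccl3 and to Ccl12 was Lilra5, an activating receptor of myeloid cells, at 0.653 and 0.774. For Ccl4 it was Hpgds, the prostaglandin D synthase of macrophages and mast cells (0.698), for Ccl7 the macrophage scavenger receptor Msr1 (0.740), and for Ccl2 Cd300ld3 (0.280). For Ccl9 it was Cxcl9 (0.224), for Ccl6 the death receptor gene Tnfrsf21 (0.275), for Ccl8 the kinase gene Map3k20 (0.209), for Ccl5 Gm6093 (0.238) and for Ccl24 2410004P03Rik (0.186). All distances rest on the same 6 libraries and include the difference between the populations.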

How the data were processed

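RNA of sorted MHCIIhi cells was sequenced in 3 CX3CR1- and 3 CX3CR1+ libraries, grouped by the sample labels. The authors pseudoaligned the reads to the mouse transcriptome (mm10, GENCODE release M16) with Kallisto, read the estimated counts into R through tximport and applied the normalization of DESeq2. Deposited values are thus a signal normalized between libraries, not counts. Only 42.6 to 44.7% of the values above 0 were whole multiples (within 0.01 of a read) of the value of 1 read, so no count test was run. That step gave the approximate reads, and intervals on them would cover counting error only. The precision of a mean is its SD over 3 libraries.

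Genes with a mean of at least 10 (17812 of 26110) were tested with limma 3.58.1 in R 4.3.3 (lmFit, eBayes with trend) on log2(value + 1), which understates the change of low genes, with Benjamini-Hochberg adjustment over all of them. Positive fold changes are higher in CX3CR1-. In simulated data the test was checked for recovery of known changes. Levels per kb used the union of exons of GENCODE M21 (GRCm38), and promoters came from RefSeq. The ligands and all gene lists were chosen with earlier results of these data known. Other CC ligands and receptors were named where called, of each further list at most the 3 called genes with the smallest adjusted p per direction. Ccl11, Ccr1, Ccr3 and the ratios were added after their values were seen. Some receptor results are not reported here. Alternatives were pseudocounts, filters, scalings, variance settings, a replicate block and leaving out each library.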

Additional observations from a re-analysis of the deposited data

How the results depend on the processing

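Each ligand was refitted under 16 alternatives, and 157 of the 160 values kept their direction and their side of the threshold. The exceptions were all of Ccl24, which missed it after quantile normalization (log2 fold change 0.91, with 3 ligands higher) and without CX3CR1+ replicate 1 or 3, where its range over the omitted libraries was 1.02 to 1.31. The cause was not tested. Median-of-ratios rescaling, equal totals without mitochondrial genes, pseudocounts of 0.5 and 10, either filter, no trend and library weights moved no ligand across the threshold. Equal totals shifted the median of all genes by 0.17 and quantile normalization by -0.15, and the share of higher calls went from 60.0% to 69.4 and 50.6%. Library numbers of both populations lie in adjacent pairs, and deviations correlated by 0.104, 0.038 and 0.0142 in these pairs. In the other pairings of a CX3CR1- with a CX3CR1+ library the correlations ran from -0.083 to 0.0404. With a replicate block of the adjacent pairs the counts stayed at 4 ligands higher and 5 lower. With this block 2165 of all genes were higher and 1445 lower, against 2177 and 1451 without it. With coding transcript lengths, chosen after seeing the data, 5 instead of 4 of 9 neighbours were separated in CX3CR1+. These now included Ccl2 and Ccl12 as well as Ccl5 and Ccl24, but no longer Ccl3 and Ccl2.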
